A study of Homo sapiens with 4 samples.

Results

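The genes described here are 52 genes of autophagy and of the lysosome, chosen by name and role and grouped into 10 classes, from initiation of the autophagosome to the lysosomal proton pump. They were looked up by gene symbol among the 20286 Ensembl identifiers of the series. All 52 were found, all 52 had a mean of at least 1 CPM (counts scaled to a common library size) over the libraries, and all 52 were among the 12698 genes tested. RNA sequencing was done on 4 libraries of HLE, an established human hepatocellular carcinoma cell line grown in serum-containing medium. In 2 libraries the cells stably carried an empty vector (Vector). In the other 2 the cells stably expressed CYR61 (CCN1), a secreted matrix-associated protein. Both groups are stable lines, no further treatment was given. The sources used here do not name the promoter that drives the introduced gene. The series design describes the 2 libraries of a group as separate cultures of the whole stable population. The p-values therefore measure the spread between cultures and not between separately made stable lines.

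Autophagy encloses cytoplasm in a double membrane, the autophagosome, which fuses with the lysosome so that its content is degraded. The ULK kinase complex starts the process and a phosphatidylinositol 3-kinase complex around BECN1 marks the growing membrane. ATG2 proteins bring lipid to it, and conjugating enzymes attach ATG8 proteins (LC3 and GABARAP) to it, which cargo receptors then bind. Lysosomal enzymes work at the low pH that the vacuolar proton pump maintains. TFEB, TFE3 and MITF are related transcription factors known for activating genes of both organelles. Liver cells depend on the pathway for the turnover of organelles and stores.

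CYR61 itself, the check of the labels, was at 221 and 218 CPM in the Vector libraries and at 8091 and 8620 CPM in the CYR61 libraries, so the libraries carried the levels their labels name. Library totals ran from 16186988 to 21588822 estimated counts, and the lowest mean level of a member was 5.51 CPM. Mitochondrial transcripts took 3.68% to 4.13% of the counts. Of 10 hepatocyte markers, 3 had a mean of at least 1 CPM (TF, HNF4A and FGB) and ALB, APOB and TTR had 0 counts in the 4 libraries. All 5 mesenchymal markers were above that level, VIM at 1496 to 1958 CPM. Between the groups 2 of these markers changed by edgeR: FN1 fell from 79.4 to 28.5 CPM (log2 fold change -1.48, adjusted p = 0.00019) and FGB rose from 5.43 to 19.5 CPM (1.85, adjusted p = 0.00044). Their part in the results below was not tested. Macrophages are rich in lysosomes, so their markers were read as well. CD163 and TYROBP were at 0 in the 4 libraries, PTPRC had 1 count in 1 library, and CD68, which lysosomes of many cells also carry, was at 62.6 to 67.2 CPM in Vector and 48.1 to 53.3 CPM in CYR61 libraries. The summed level of the 8 macrophage markers was 65.1 to 70.1 CPM in Vector and 50.2 to 56.3 CPM in CYR61 libraries. Nearly all of this sum was CD68, so it adds little to the value of that gene. CSF1R was at 2.44 and 2.08 CPM in Vector and 1.44 and 2.44 CPM in CYR61 libraries. CD14, near the floor, went the other way, at 0.37 and 0.18 CPM in Vector and 0.65 and 0.44 CPM in CYR61 libraries. The part of these markers in the results below was not tested. In bulk RNA, fewer cells of a kind and less RNA per cell cannot be told apart.

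In CYR61-expressing cells 4 of the 52 genes fell and 0 rose, with the threshold of an edgeR adjusted p of 0.05 over all tested genes. They are ULK1, the kinase that starts autophagy, ATG2A, a lipid transfer protein, GABARAPL1, an ATG8 protein, and TFE3, a transcription factor of lysosomal genes. That is 7.69% of the members called lower, beside 4.56% of all tested genes called lower and 1.83% called higher. The median log2 fold change (CYR61 minus Vector) was -0.11 over the members and -0.01 over all tested genes, and 36 of the 52 values were below 0 and 16 above. Both CYR61 libraries lay below both Vector libraries for 24 members (46.2%), against 27.7% of all tested genes, and above them for 7 members (13.5%), against 23.9%. In the other 21 members the groups overlapped. With 2 libraries a group such separation has no test of its own.

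**Figure D1:**
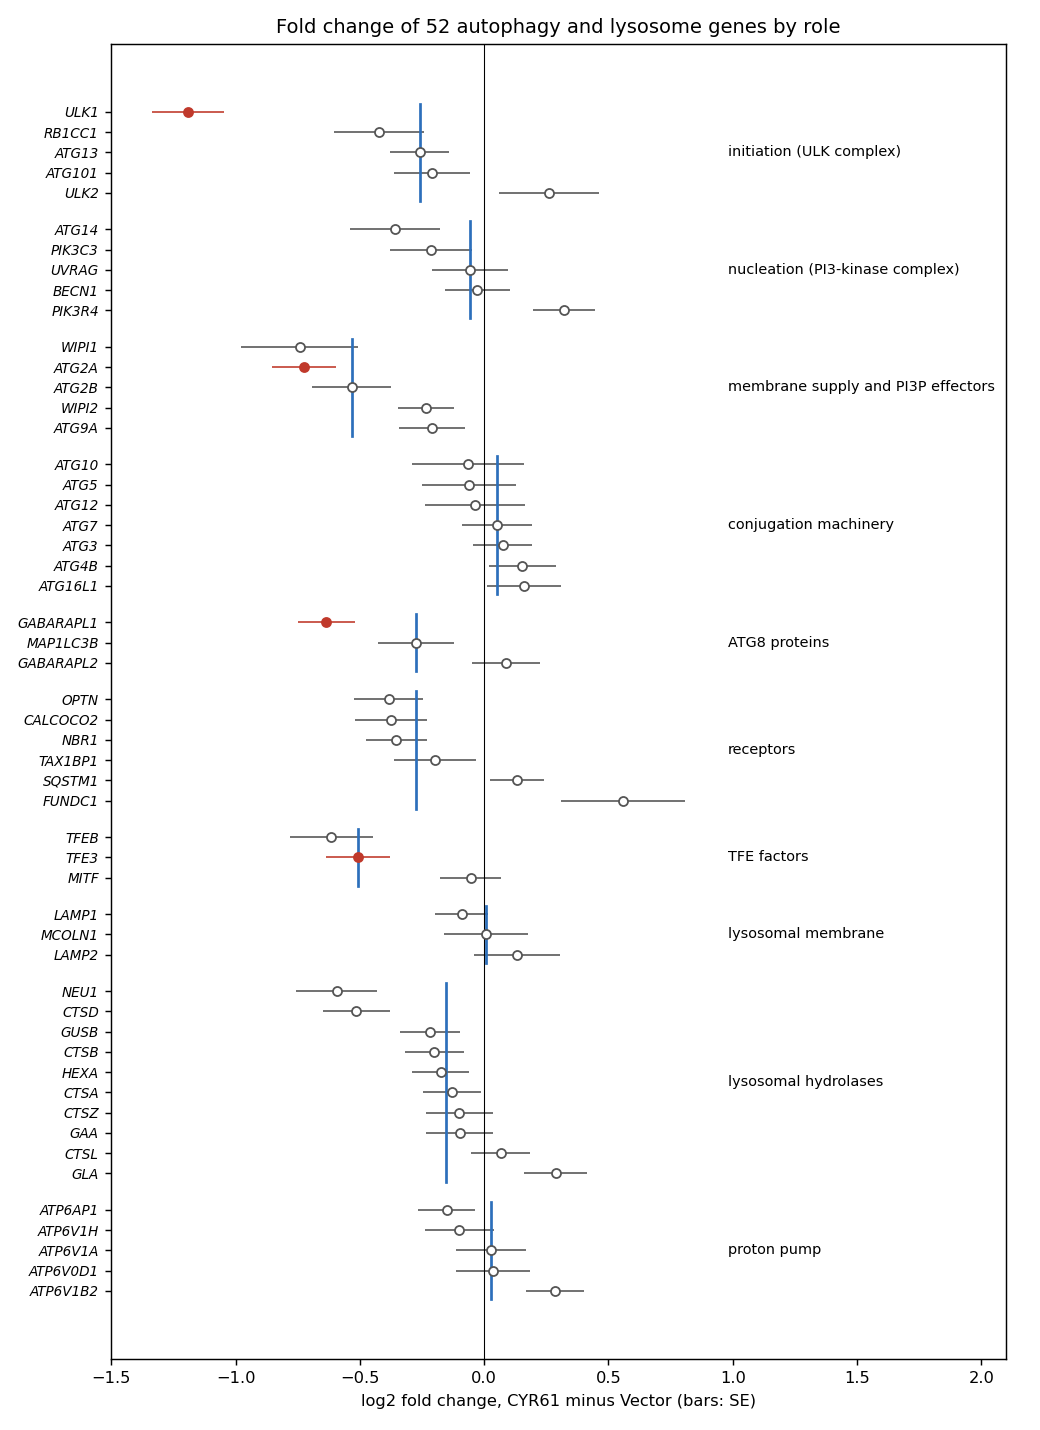
Log2 fold change (CYR61 minus Vector) of the 52 genes by role, with points for the fitted value, bars for its standard error, red points for the 4 genes called by edgeR and blue lines for the median of each class. The 4 red points are ULK1, ATG2A, GABARAPL1 and TFE3, all below 0. The class medians run from -0.53 for membrane supply to 0.05 for the conjugation machinery.

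Among the 5 genes of the initiation complex, ULK1 (ENSG00000177169, GRCh38 chromosome 12, 131894651 to 131923167) showed the largest change of all members. Its level was 281 and 249.6 CPM in the Vector libraries and 100.2 and 132 CPM in the CYR61 libraries. Both CYR61 libraries were low, and the higher of them was still far below the lower Vector library. The fall was 2.28-fold (log2 fold change -1.19, standard error (SE) 0.15, edgeR adjusted p = 0.0016), from 265 ± 22 to 116 ± 22.8 CPM (mean ± SD, n = 2 each). The log2 fold change lay between -1.40 and -0.99 with each library omitted in turn. ULK2, the related kinase, was at 7.59 and 6.70 CPM in Vector and 9.44 and 7.58 CPM in CYR61 libraries (log2 fold change 0.26, SE 0.20), and its groups overlapped. The difference in change between ULK1 and ULK2 was not tested. Of the partners of ULK1, the scaffold gene RB1CC1 had a log2 fold change of -0.42, ATG13 of -0.26 and ATG101 of -0.21, none of them called (edgeR adjusted p = 0.196, 0.222 and 0.457). Both CYR61 libraries were below both Vector libraries for ATG13, at 72.4 and 78.7 CPM against 90.8 and 90.1 CPM. Exons of ATG13 overlap those of HARBI1 on the opposite strand, and the sources used here do not say whether counting used strand. Such exon overlaps with other genes of the series were found for 18 of the 52 members and for 0 of the 4 that fell. Genes without an identifier in the series were not checked for overlap.

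The 5 genes of the nucleation complex were not called, with a median log2 fold change of -0.06. BECN1, its scaffold, was at 40.5 and 39.5 CPM in Vector and 39.3 and 39.2 CPM in CYR61 libraries, a log2 fold change of -0.03 (SE 0.13). Exons of BECN1 overlap those of PSME3 over 300 bases and of CNTD1 over 795 bases, both on the opposite strand. PSME3 had 4391 to 6882 counts and BECN1 had 626 to 872, so the value of BECN1 is uncertain. The catalytic subunit gene PIK3C3 had -0.21, UVRAG -0.06 and ATG14, which directs the complex to autophagy, -0.36 (edgeR adjusted p = 0.268). PIK3R4, the regulatory kinase-like subunit, went the other way and had the smallest p of the class. It was at 51.2 and 56.6 CPM in Vector and 68.0 and 66.7 CPM in CYR61 libraries (log2 fold change 0.32 with an SE of 0.12, adjusted p = 0.155 by edgeR).

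All 5 genes of membrane supply and of the effectors that bind the marked membrane had a value below 0. Their median of -0.53 was the lowest of the 10 classes in the fit reported, next to -0.51 for the TFE factors. The order turned without Vector 2 (-0.36 against -0.58 for the TFE factors) and without CYR61 2 (-0.47 against -0.63). It held without Vector 1 (-0.49 against -0.43) and without CYR61 1 (-0.59 against -0.38). ATG2A (ENSG00000110046, chromosome 11, 64894546 to 64917248), a bridge for lipids, was at 151 and 133 CPM in Vector and 79.5 and 92.3 CPM in CYR61 libraries. The groups were clearly apart, and ATG2A fell 1.65-fold (log2 fold change -0.72 with an SE of 0.13, adjusted p = 0.00949 by edgeR). Its paralog ATG2B was at 30.5 and 37.9 CPM in Vector and 24.8 and 22.5 CPM in CYR61 libraries (log2 fold change -0.53 with an SE of 0.16, adjusted p = 0.0785 by edgeR). Exons of ATG2B overlap those of GSKIP on the opposite strand over 419 bases. WIPI1, a low-abundance effector gene, had 8.28 and 5.93 CPM in Vector and 4.09 and 4.39 CPM in CYR61 libraries (log2 fold change -0.74 with an SE of 0.23, adjusted p = 0.093 by edgeR). Exons of WIPI1 overlap those of ARSG on the opposite strand over 828 bases, and ARSG had more counts (231 to 297) than WIPI1, so the value of WIPI1 is uncertain. Its paralog WIPI2 had a log2 fold change of -0.23, and the scramblase gene ATG9A -0.21. ATG9A shares 1833 exon bases with a second gene model on the same strand, so its value is uncertain.

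The 7 genes of the conjugation machinery had small values, all between -0.07 and 0.16 and a median of 0.05. None was called. ATG5, ATG12 and ATG16L1 form the ligase that attaches ATG8 proteins to lipid, and had log2 fold changes of -0.06, -0.04 and 0.16. ATG7, the activating enzyme, had 0.05, and the transfer enzymes ATG3 and ATG10 0.07 and -0.07. ATG4B, the protease that trims ATG8 proteins, had the smallest p of the class, with 32.6 and 32.2 CPM in Vector and 35.4 and 36.7 CPM in CYR61 libraries (log2 fold change 0.15 with an SE of 0.13, adjusted p = 0.538 by edgeR). The SE of these 7 genes ranged from 0.12 to 0.22. Exons of ATG10 overlap those of RPS23 on the opposite strand over 374 bases. RPS23 had 11117 to 14557 counts and ATG10 had 80 to 123, so the value of ATG10 is uncertain. Exons of ATG7 overlap those of VGLL4 over 1596 bases, and those of ATG4B overlap THAP4, which had more counts. ATG3 and ATG12 also have such overlaps on the opposite strand.

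The 3 genes for ATG8 proteins, the targets of that machinery, did not share one value. GABARAPL1 (ENSG00000139112, chromosome 12, 10212458 to 10223130) was at 145 and 137 CPM in Vector and 88.8 and 93.0 CPM in CYR61 libraries. The libraries of a group lay close together and the groups far apart. GABARAPL1 fell 1.55-fold (log2 fold change -0.64 with an SE of 0.11, adjusted p = 0.00986 by edgeR), and the call was lost without Vector 1 (log2 fold change -0.59, edgeR adjusted p = 0.0654). GABARAPL2 was at 38.1 and 35.1 CPM in Vector and 40.9 and 36.8 CPM in CYR61 libraries (log2 fold change 0.09, SE 0.14). MAP1LC3B, which encodes LC3B, was at 52.8 and 67.2 CPM in Vector and 53.5 and 45.8 CPM in CYR61 libraries, so its groups overlapped (log2 fold change -0.27 with an SE of 0.15, adjusted p = 0.32 by edgeR). The 3 changes were not tested against each other. GABARAPL3, a near-identical copy of GABARAPL1, was not analysed here, and reads of it may be among those of GABARAPL1.

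Of the 6 receptor genes none was called, and their values ran from -0.39 to 0.56 with a median of -0.28. NBR1, which binds ubiquitin and ATG8 proteins, had the smallest p, with 149.9 and 167 CPM in Vector and 133 and 115 CPM in CYR61 libraries (log2 fold change -0.35 with an SE of 0.12, adjusted p = 0.117 by edgeR). OPTN and CALCOCO2, receptors for damaged mitochondria and bacteria, had -0.39 and -0.37, each with both CYR61 libraries below both Vector libraries. TAX1BP1 had -0.20, and its groups overlapped. SQSTM1, encoding p62, was at 430.5 and 393 CPM in Vector and 450.3 and 453 CPM in CYR61 libraries (log2 fold change 0.13 with an SE of 0.11, adjusted p = 0.507 by edgeR). Its exons overlap those of MRNIP on the opposite strand, which was at 19.5 to 21.4 CPM. FUNDC1, a mitochondrial receptor gene, had the largest value above 0, with 5.41 and 8.02 CPM in Vector and 11.7 and 8.02 CPM in CYR61 libraries (log2 fold change 0.56 with an SE of 0.25, adjusted p = 0.216 by edgeR). One library of each group was almost level there.

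**Figure D2:**
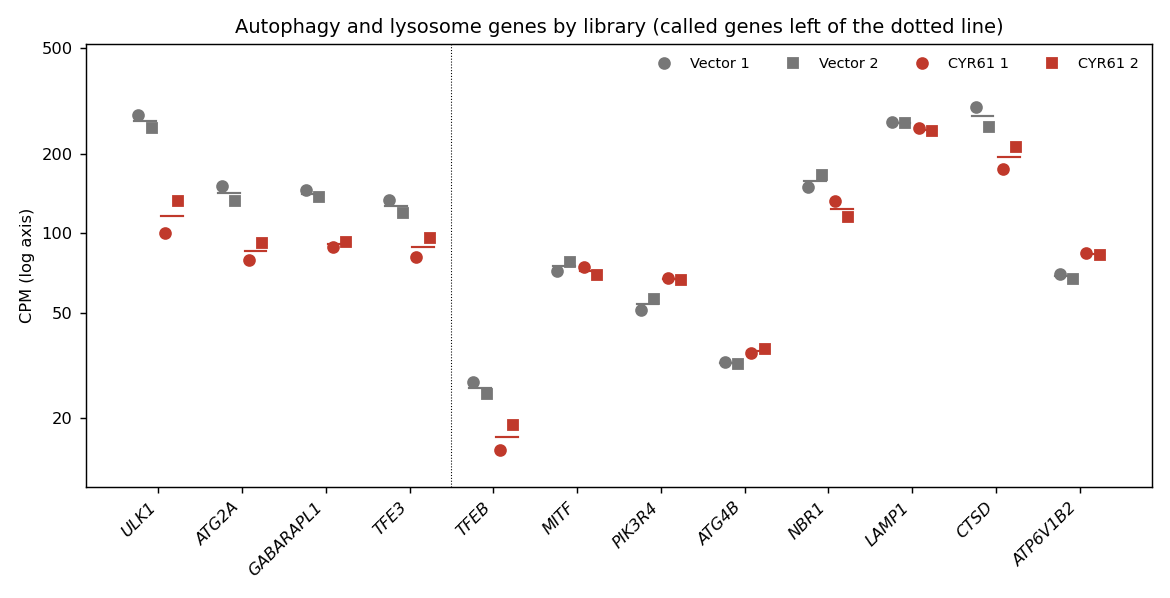
CPM (log axis) in each of the 4 libraries for the 4 called genes, for TFEB and MITF, and for the gene of smallest p in each class without a call. Grey marks Vector, red CYR61, circles replicate 1, squares replicate 2 and short lines the group means. The red points of ULK1, ATG2A, GABARAPL1 and TFE3 lie below the grey ones. For MITF the red circle lies between the grey points and the red square just below them.

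TFE3 (ENSG00000068323, chromosome X, 49028726 to 49043486) was the one transcription factor called. It was at 133 and 119.8 CPM in Vector and 81.5 and 96.4 CPM in CYR61 libraries. Both CYR61 libraries were below both Vector libraries, with a wider gap between replicates than for GABARAPL1. TFE3 fell 1.42-fold (log2 fold change -0.51 with an SE of 0.13, adjusted p = 0.0449 by edgeR), close to the threshold. The call was lost without Vector 1 (edgeR adjusted p = 0.289), without Vector 2 (0.0706), without CYR61 1 (0.256) and with RLE size factors (0.0608). TFEB was at 27.5 and 24.6 CPM in Vector and 15.2 and 18.9 CPM in CYR61 libraries, with groups apart in the same way. Its log2 fold change was -0.61 (SE 0.17) and the edgeR adjusted p = 0.0587 missed the threshold. TFEB was called under 6 of 17 alternative fits, among them DESeq2 (adjusted p of 0.0496), and not under the others. With 1 library left out its log2 fold change ran from -0.78 to -0.45. MITF was at 72.0 and 78.1 CPM in Vector and 74.9 and 69.7 CPM in CYR61 libraries (log2 fold change -0.05, SE 0.12), so its groups overlapped.

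The lysosomal genes were not called in any class. The membrane protein genes LAMP1 and LAMP2 had log2 fold changes of -0.09 and 0.13, and MCOLN1, a calcium channel gene of the lysosome, 0.01. LAMP1, the gene of smallest p in this class, was at 264 and 261 CPM in Vector and 249.7 and 243 CPM in CYR61 libraries (SE 0.11, edgeR adjusted p = 0.662). Among the 10 hydrolase genes the median was -0.15, with 8 values below 0 and 2 above. CTSD, the aspartic protease cathepsin D, had the smallest p. It was at 301 and 252 CPM in Vector and 175 and 212 CPM in CYR61 libraries (log2 fold change -0.51 with an SE of 0.14, adjusted p = 0.0512 by edgeR). The groups of CTSD did not overlap. It was called under 8 of 17 alternative fits, among them DESeq2 (adjusted p = 0.0231), and not under the others. That tally has the same limit as the one for TFEB. With 1 library left out the log2 fold change of CTSD ran from -0.66 to -0.37. CTSD shares 1304 exon bases with a second gene model on the same strand and is uncertain. NEU1, a sialidase, was at 31.9 and 27.4 CPM in Vector and 18.0 and 21.3 CPM in CYR61 libraries (log2 fold change -0.59 with an SE of 0.16, adjusted p = 0.0587 by edgeR).

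The other hydrolases were nearer to 0. The cathepsin genes CTSB, CTSZ and CTSL had log2 fold changes of -0.20, -0.10 and 0.07, and CTSA, which protects NEU1 in a complex, -0.13. The glycosidase genes GUSB, HEXA and GAA had -0.22, -0.18 and -0.10. GLA, alpha-galactosidase, was the one hydrolase with both CYR61 libraries above both Vector libraries, at 47.0 and 46.8 against 38.7 and 38.2 CPM (log2 fold change 0.29 with an SE of 0.13, adjusted p = 0.213 by edgeR). In the proton pump the median was 0.03. ATP6V1B2, a subunit of the part that hydrolyses ATP, had the smallest p, at 70.3 and 67.2 CPM in Vector and 84.4 and 83.1 CPM in CYR61 libraries (log2 fold change 0.28 with an SE of 0.12, adjusted p = 0.179 by edgeR). ATP6V1A, the catalytic subunit gene, had 0.03, ATP6V0D1 0.04, ATP6V1H -0.10 and the accessory gene ATP6AP1 -0.15.

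Levels were compared between genes only per length, as CPM per kilobase of exons in GENCODE release 29, which counts all annotated exons and so understates genes with many rarely used ones. In Vector cells the highest were CTSZ at 127, CTSD at 88.5, SQSTM1 at 53.8, CTSL at 52.03 and LAMP1 at 45.7 CPM per kilobase. The lowest were ULK2 at 0.726 and ATG10 at 1.04 CPM per kilobase, and the level of ATG10 is uncertain for its overlap with RPS23. ULK1 was at 34.9 CPM per kilobase in Vector and 15.3 in CYR61 cells, so of the 2 related kinases ULK1 was the more abundant in both groups.

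The promoters of the 4 genes that fell are shown because these were the members called. Shared control of the 4 genes was not tested. Each is the RefSeq window on GRCh38.p14 from 250 bases before to 50 bases after the annotated start, read 5′ to 3′ on the strand of the gene. Capitals mark a match to any of 6 motifs, which were searched on both strands: CACGTG (E-box), TCACGTG, TCACGTGA (the core of CLEAR, the element that TFE factors bind), TGATGNAA (C/EBP-ATF response element), TGACGTCA (cAMP response element) and TGACTCA (AP-1 site). The first 3 overlap by construction, and the last 2 were added after these windows had been read.
ULK1 (chr12:131894372-131894671, plus strand): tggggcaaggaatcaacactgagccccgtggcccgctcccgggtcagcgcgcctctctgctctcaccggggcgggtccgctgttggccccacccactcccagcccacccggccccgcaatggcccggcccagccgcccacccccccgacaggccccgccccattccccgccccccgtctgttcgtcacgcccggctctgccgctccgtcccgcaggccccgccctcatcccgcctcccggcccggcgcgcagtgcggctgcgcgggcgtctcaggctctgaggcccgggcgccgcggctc
ATG2A (chr11:64917160-64917459, minus strand): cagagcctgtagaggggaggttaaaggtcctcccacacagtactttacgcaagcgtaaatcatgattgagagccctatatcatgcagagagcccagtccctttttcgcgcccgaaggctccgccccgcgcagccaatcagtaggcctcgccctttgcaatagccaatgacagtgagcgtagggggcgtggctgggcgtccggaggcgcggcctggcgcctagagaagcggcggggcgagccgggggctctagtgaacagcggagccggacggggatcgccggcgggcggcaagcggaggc
GABARAPL1 (chr12:10212627-10212926, plus strand): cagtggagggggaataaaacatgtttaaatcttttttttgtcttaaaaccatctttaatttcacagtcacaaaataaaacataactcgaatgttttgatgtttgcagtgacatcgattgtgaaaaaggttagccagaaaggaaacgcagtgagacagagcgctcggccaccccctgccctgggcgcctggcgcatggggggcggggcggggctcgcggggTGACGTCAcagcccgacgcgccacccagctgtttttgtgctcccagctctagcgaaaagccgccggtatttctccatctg
TFE3 (chrX:49043308-49043607, minus strand): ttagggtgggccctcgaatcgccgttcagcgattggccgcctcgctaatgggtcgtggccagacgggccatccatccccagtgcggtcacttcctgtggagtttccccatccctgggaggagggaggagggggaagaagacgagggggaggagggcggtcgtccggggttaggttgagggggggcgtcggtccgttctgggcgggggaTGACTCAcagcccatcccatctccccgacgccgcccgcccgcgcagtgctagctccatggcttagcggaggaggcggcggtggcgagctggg

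The ULK1 and ATG2A windows held none of the 6 motifs, and bases G and C made up 78.3% and 64.7% of them. The GABARAPL1 window held TGACGTCA, which is in 1.85% of all 35116 RefSeq windows of this length. Among the 55 windows of members TGACGTCA was in 2 (3.64%), those of GABARAPL1 and MITF. The TFE3 window held TGACTCA, which is in 4.95% of all windows and in 1 of the 55 windows of members (1.82%). Both motifs were added after the windows of the genes that fell had been read, so these shares are not a test. TGATGNAA was in none of the 55 windows of members and in 3.62% of all. No match says only that these letters are not in the window, and a match is not a site that was measured.

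Windows were found for 44 members, and 9 of the 55 windows (16.4%) held the E-box, against 7.26% of all windows. All 9 also held TCACGTG, against 3.71% of all windows. The CLEAR core was in 6 windows of members (10.9%), those of ATG3, LAMP1, ATP6V0D1, GAA, MCOLN1 and CTSA, and in 0.98% of all windows. It was in none of the windows of the 4 genes that fell. Each match is printed with 12 bases on either side and the motif in capitals.
ATG3 (chr3:112561939-112561970, minus strand): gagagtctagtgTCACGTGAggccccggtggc
LAMP1 first match (chr13:113297198-113297229, plus strand): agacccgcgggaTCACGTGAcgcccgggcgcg
LAMP1 second match (chr13:113297225-113297256, plus strand): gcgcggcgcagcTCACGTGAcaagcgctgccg
ATP6V0D1 (chr16:67481198-67481229, minus strand): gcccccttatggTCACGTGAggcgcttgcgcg
GAA first match (chr17:80101492-80101523, plus strand): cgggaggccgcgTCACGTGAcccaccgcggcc
GAA second match (chr17:80101537-80101568, plus strand): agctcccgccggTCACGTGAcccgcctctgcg
MCOLN1 first match (chr19:7522570-7522601, plus strand): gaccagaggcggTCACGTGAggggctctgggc
MCOLN1 second match (chr19:7522597-7522628, plus strand): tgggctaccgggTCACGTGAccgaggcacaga
CTSA (chr20:45891297-45891328, plus strand): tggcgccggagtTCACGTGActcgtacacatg

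The 6 genes with the CLEAR core had log2 fold changes between -0.13 and 0.07, with a median of -0.04, and 0 of the 6 were called. The other 3 genes with TCACGTG were NEU1, CTSD and ATG14, at log2 fold changes of -0.59, -0.51 and -0.36, and 0 of the 3 were called. Over all tested genes 4.56% were called lower and 1.83% higher, so 0 calls among so few genes say little. With the GC trend removed (below), these 3 genes were called lower and the 6 with the CLEAR core were not called. That fit called 13.9% of all tested genes lower and 15.8% higher. The difference between the 3 genes and the 6 was not tested, and CTSD is uncertain for its exon overlap (above). The matches of NEU1, CTSD and ATG14 follow in the same form, with capitals for TCACGTG or its reverse complement.
NEU1 (chr6:31862930-31862960, minus strand): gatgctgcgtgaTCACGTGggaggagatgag
CTSD (chr11:1763956-1763986, minus strand): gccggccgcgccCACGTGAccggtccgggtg
ATG14 (chr14:55411833-55411863, minus strand): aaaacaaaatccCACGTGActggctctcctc

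Base composition moved with the spread between libraries. GC content and the log2 ratio of Vector 2 to Vector 1 had a Spearman's rho of -0.75 across 10400 genes with 5 CPM or more, and for the ratio of CYR61 1 to CYR61 2 the rho was -0.80. These values describe genes that share the same libraries. For the change between groups it was -0.18. Transcripts of ULK1 are 64.1% G and C, those of ATG2A 63.8%, of TFE3 59.0% and of GABARAPL1 50.8%, against medians of 49.8% for the members and 49.7% for all tested genes. After removal of the GC trend in every library, the 4 genes kept similar values, at log2 fold changes of -1.08 for ULK1, -0.61 for ATG2A, -0.61 for GABARAPL1 and -0.42 for TFE3. Each was called (edgeR adjusted p = 4.85e-06, 8.63e-05, 9.83e-05 and 0.000838). The trend was estimated from these same libraries and follows the spread between replicates, so its removal can take up part of that spread. Calls over all genes went from 811 to 3772. The smaller adjusted p-values are therefore not independent support for the 4 calls.

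More members passed the threshold in that fit, as did more of all genes. It called 16 of the 52 members lower (30.8%) and 4 higher (7.69%), beside 13.9% of all tested genes lower and 15.8% higher. Over all genes the calls were 53.2% higher with the trend removed and 28.6% higher without. The 12 further members called lower were ATG13, RB1CC1, ATG14, WIPI1, ATG2B, NBR1, OPTN, TAX1BP1, CALCOCO2, TFEB, CTSD and NEU1. The 4 called higher were PIK3R4, SQSTM1, FUNDC1 and GLA. By class it called all 6 receptor genes (4 lower and 2 higher), 3 of 5 initiation and 3 of 5 membrane supply genes, and 0 of 7 conjugation, 0 of 3 lysosomal membrane and 0 of 5 proton pump genes. The log2 fold change was -0.51 for TFEB (edgeR adjusted p = 0.00344), -0.40 for CTSD (0.00079), -0.55 for NEU1 (0.00286) and 0.23 for SQSTM1 (0.0273).

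**Figure D3:**
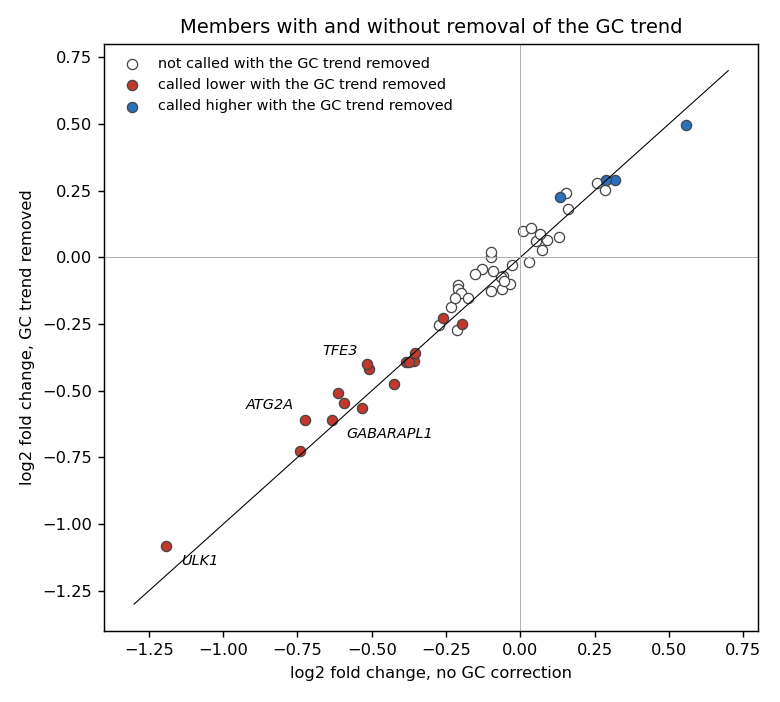
Log2 fold change (CYR61 minus Vector) of the 52 genes without GC correction (x axis) and with the GC trend of each library removed (y axis). Points stand for genes, fill for the edgeR call with the trend removed, and the line for equal values. All points lie near the line, with 16 called lower, 4 called higher and ULK1 the farthest from 0.

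Other genes of the same pathways, 130 chosen by role, gave 119 tested genes with a mean of at least 1 CPM. Of these 5 fell and 0 rose, 4.2% lower beside the 4.56% of all tested genes, with a median log2 fold change of -0.09. Receptors for mitochondria gave 2 of the 5. BNIP3L, induced by low oxygen, was at 82.7 and 94.0 CPM in Vector and 47.9 and 41.6 CPM in CYR61 libraries (log2 fold change -0.98 with an SE of 0.13, adjusted p = 0.00259 by edgeR). BNIP3, its relative, was at 69.4 and 69.4 CPM in Vector and 41.1 and 36.8 CPM in CYR61 libraries (log2 fold change -0.83 with an SE of 0.13, adjusted p = 0.00474 by edgeR). In both genes the CYR61 libraries were close to each other and well below the Vector libraries.

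The other 3 act at separate steps. DNASE2, the lysosomal nuclease, was at 81.0 and 71.0 CPM in Vector and 42.1 and 48.4 CPM in CYR61 libraries (log2 fold change -0.75 with an SE of 0.14, adjusted p = 0.0104 by edgeR). WDR45, of the family of WIPI1 and WIPI2, was at 81.5 and 75.3 CPM in Vector and 46.1 and 53.4 CPM in CYR61 libraries (log2 fold change -0.66 with an SE of 0.13, adjusted p = 0.0165 by edgeR). TECPR1, which helps autophagosomes fuse with lysosomes, was at 39.5 and 36.9 CPM in Vector and 25.1 and 26.1 CPM in CYR61 libraries (log2 fold change -0.58 with an SE of 0.14, adjusted p = 0.036 by edgeR). In all 3 the groups did not overlap. Some calls were lost with 1 library fewer. Omitting Vector 1 gave edgeR adjusted p-values of 0.0523 for DNASE2, 0.0885 for WDR45 and 0.244 for TECPR1. Without CYR61 1 it was 0.0747 for WDR45 and 0.12 for TECPR1, and without Vector 2 it was 0.102 for TECPR1.

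No gene was called among 31 further hydrolase genes apart from DNASE2, among 21 of lysosomal membrane and sorting (median 0.00), 11 of the proton pump (median 0.07), 11 that control TFE factors (median 0.03) or 6 of conjugation and ATG8 proteins (median -0.24). The lowest medians were in the receptors, at -0.29 over 14 genes, and in conjugation and ATG8 proteins. For 5 of the 11 further proton pump genes (45.5%) both CYR61 libraries were above both Vector libraries, beside 23.9% of all tested genes. For 1 (9.09%) both were below, beside 27.7% of all tested genes.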

How the data were processed

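RNA of 4 libraries was measured by sequencing. The authors deposited 1 file of estimated counts per library. Between 11.2% and 12% of the values were not whole numbers, so these estimated counts were rounded. The submitters' processing notes name hg38 as build, and TopHat2 (2.1.1), Cufflinks (2.2.1) and, among the tools, Cuffdiff (1.3.0). No source used here gives the counting program, the annotation or the strandedness. Depth was 16186988 to 21588822 estimated counts.

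Symbols were found for 20228 of 20286 identifiers, and positions, exon lengths and GC content came from GENCODE release 29 (GRCh38). Promoter windows came from RefSeq (GRCh38.p14). Counts were filtered with filterByExpr, scaled by TMM and fitted on group with edgeR 4.0.16 (glmQLFit, glmQLFTest, R 4.3.3), with Benjamini-Hochberg adjustment over 12698 genes and a threshold of 0.05. The standard error (SE) was taken as the size of the log2 fold change over the root of the F statistic. Scripts were tested on simulated data.

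Members, lists, tests and alternatives were chosen with earlier results of these data known. Given in full were called members, TFEB, TFE3 and MITF, and the member of smallest p in each class without a call; from the wider list, up to 3 called genes a class. Members given in full beyond these (ULK2, ATG13, BECN1, ATG2B, WIPI1, GABARAPL2, MAP1LC3B, SQSTM1, FUNDC1, NEU1 and GLA) were chosen after their values were seen. The 17 alternatives included DESeq2 1.42.0, limma-voom (limma 3.58.1), other scalings and filters, the replicate number as a block, GC trend removal (natural spline, 5 degrees of freedom) and each library left out in turn.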

Additional observations from a re-analysis of the deposited data

How the results depend on the processing

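Members called lower numbered 4 in the fit reported and 2 to 7 with 1 library left out (2 without Vector 1, 7 without CYR61 2); they numbered 7 with DESeq2, 10 without a filter, 16 with the GC trend removed and 14 with the trend removed and the replicate block. Members called higher numbered 0, 0 to 1 with 1 library left out, 4 with the GC trend removed and 3 with the block as well. From the wider list 5 were lower, 2 to 5 with 1 library left out, 27 with the GC trend removed and 17 with the block as well. Those higher numbered 0, 0 to 1 with 1 library left out, 1 with DESeq2, 1 without a filter, 11 with the GC trend removed and 8 with the block as well. The number of all genes called was 811, and 481 to 1331 with 1 library left out, 1677 without a filter, 3772 with the GC trend removed and 3004 with the block as well. The median of the members was -0.17 to -0.11 with 1 library left out. The cause of these shifts was not tested. ULK1 and ATG2A were called under all 17 alternatives.

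The replicate numbers did not pair the libraries: the correlation of same-numbered deviations was -0.71 across genes. For all genes called, the replicate block gave 391, with 2 members (ULK1 and ATG2A) and 3 of the wider list lower; the edgeR adjusted p was then 0.0966 for GABARAPL1 and 0.257 for TFE3, which were not called. With crossed numbers the replicate block gave 5624, with 25 members lower and 5 higher, and 42 and 19 of the wider list. The labels do not give the crossed pairing, which follows the correlation of -0.71 in these same data. Its block takes up spread between replicates, so these counts are not evidence of change.

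Signs turned only in members that were not called in the fit reported. With 1 library left out the log2 fold change ran from -0.40 to 0.021 for ATG101, -0.13 to 0.026 for UVRAG, -0.24 to 0.13 for ATG5, -0.020 to 0.14 for ATG7, -0.24 to 0.12 for ATG10, -0.29 to 0.18 for ATG12, -0.42 to 0.0027 for TAX1BP1, -0.11 to 0.012 for MITF, -0.078 to 0.38 for LAMP2, -0.21 to 0.22 for MCOLN1, -0.0086 to 0.15 for CTSL, -0.25 to 0.048 for CTSZ, -0.23 to 0.037 for GAA, -0.11 to 0.20 for ATP6V0D1 and -0.13 to 0.18 for ATP6V1A. With the GC trend removed, without and with the replicate block, it was 0.019 and 0.019 for GAA, 0.00021 and 0.00024 for CTSZ and -0.016 and -0.019 for ATP6V1A. For MCOLN1 it was -0.017 with limma-voom, -0.0059 with library size alone, -0.0088 with the filter of 5 CPM, -0.0031 with the replicate block and -0.0079 with crossed numbers. With 2 libraries a group, and 1 in an arm when a library is left out (assumed to vary like the other group), the SE of 0.11 to 0.25 limits what could be called.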
